A study of Arabidopsis with 12 samples.

Results

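The transcripts of the Arabidopsis double mutant ein3 eil1 were compared with those of the wild type Col-0 after both had been treated with methyl jasmonate (MeJA). The comparison takes the 2 arrays labelled ein3 eil1 JA and the 2 labelled Col-0 JA, 4 of the 12 arrays of the study, and all 22588 features that remained after the array's control probe sets had been left out. The mock arrays of Col-0 have no part in the difference itself. Both groups were whole 7-day-old seedlings in the Columbia background, grown on MS medium in long days at 23 °C and exposed to 100 µM MeJA for 4 h. The labels call Col-0 wild type and ein3 eil1 a double mutant, and give no allele for either mutated gene. The other 8 arrays were Col-0 and ein3 eil1 seedlings given the ethanol solvent (mock) and the jasmonate receptor mutant coi1-2 under MeJA and mock, 2 arrays per group. The stated aim was to find how far jasmonate-regulated transcripts depend on COI1 or on EIN3 and EIL1.

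Jasmonate is a lipid-derived hormone of wounding and defence, and MeJA is taken up and turned into its active amino acid conjugate. The conjugate joins the F-box protein COI1 to JAZ repressors, which are degraded, so that MYC factors and other activators are released. EIN3 and EIL1 are transcription factors through which ethylene acts on its target genes, and some JAZ proteins also bind and restrain them. Defence genes that answer to jasmonate and ethylene together, among them the defensin gene PDF1.2, are known as the ERF branch, while the MYC branch serves wounding and insect defence.

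Values are deposited log2 expression levels, on which a difference of 1 is a 2-fold change, and the medians of the 4 MeJA arrays lay between 5.23 and 5.36. Levels of different genes were not compared, since each probe set has its own scale. A feature was called when its limma p-value was under 0.05 after Benjamini-Hochberg adjustment across the features. Whether the replicates came from separate cultures is not stated, so the tests set differences against the spread of these arrays only, which may be technical, and 2 arrays per group limit the precision of every value. The ein3 eil1 MeJA arrays were the replicate pair furthest apart (r = 0.9898 across features, SD of the difference 0.326, against 0.9941 and 0.25 for Col-0 MeJA). Replicate 2 of this pair was as close to ein3 eil1 mock replicate 2 (r = 0.9898, SD 0.326) as to its partner. On the second principal component (18.8% of the variance) both Col-0 mock arrays, at −42.9 and −41.9, stood apart from the other 10, at −9.1 to 22.4. The difference under MeJA does not use them. Every value for mock below, and every comparison of MeJA with mock, rests on both, so no value without them can be given.

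Under MeJA 1237 of 22588 features (5.48%) were called different between the genotypes, 659 of them higher in ein3 eil1 (2.92%) and 578 lower (2.56%). At least 2-fold were 276 higher (1.22%) and 184 lower (0.815%) features. Among the 13355 features that carry the name of 1 gene, 564 (4.22%) were called, 303 higher (2.27%) and 261 lower (1.95%). The median difference over all features was 0.01, and the median standard error 0.15. The share of calls that were higher depended on single arrays, and the cause was not tested. It was 53.3% with all arrays, 64% of 1055 calls without ein3 eil1 MeJA replicate 1 and 45.3% of 1374 calls without replicate 2. It was 56.7% of 630 calls without Col-0 MeJA replicate 1 and 49.7% of 789 calls without Col-0 MeJA replicate 2. Both arrays of one genotype lay beyond both of the other for 21.9% of all features on the higher side and for 20.1% on the lower side, so a lack of overlap alone is common here.

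**Figure D1:**
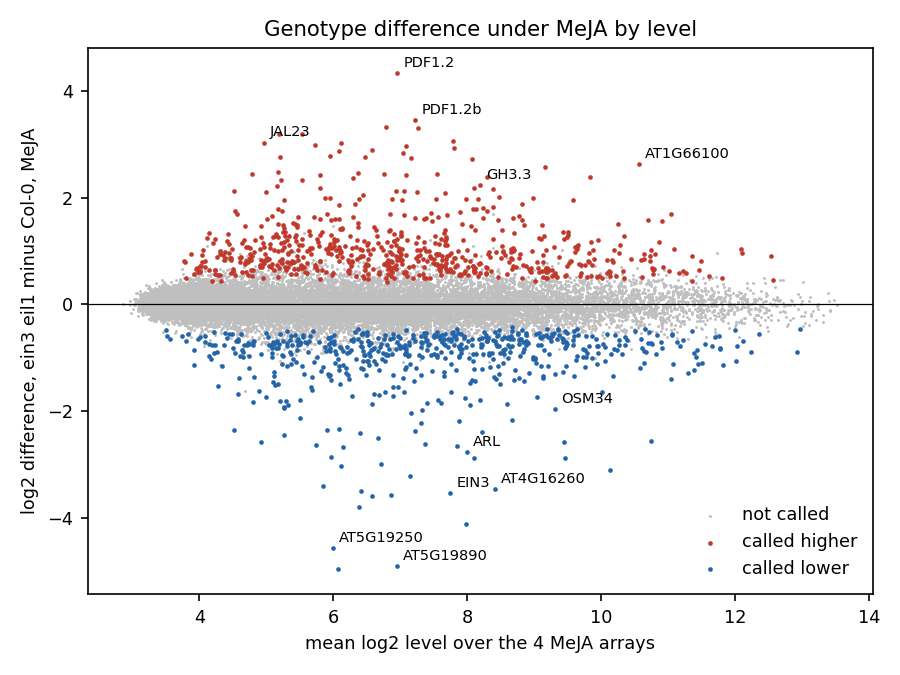
Log2 difference between ein3 eil1 and Col-0 under MeJA (vertical axis) against the mean log2 level over the 4 MeJA arrays (horizontal axis), 1 point per feature, with red for the 659 called higher, blue for the 578 called lower and grey for those not called. The differences run from −4.97 to 4.34, and called features are found from low to high levels.

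EIN3, the mutated gene, was at 9.52 and 9.50 in the Col-0 MeJA arrays and at 6.03 and 5.91 in those of ein3 eil1. Both mutant arrays lay far below both wild-type arrays, with the mutant mean still above the median of its arrays. The difference was −3.54 ± 0.14 (log2, SE, n = 2 arrays per group), an 11.7-fold lower level (limma adjusted p = 4.54e-08). EIL1 was not analysed here. RTE1, a membrane protein that acts on the ethylene receptor ETR1, was at 7.97 and 8.10 in Col-0 and at 7.10 and 7.01 in ein3 eil1, a difference of −0.98 ± 0.13 (adjusted p = 0.000875). The groups did not overlap, which held for 20.1% of all features on the lower side. ETP2, an F-box protein that targets the ethylene signalling protein EIN2, was at 0.03 ± 0.19 (adjusted p = 0.97). Of 14 listed genes of ethylene perception and signalling these 2 were measured under a gene name, and of 13 ethylene synthesis genes 1, the ACC oxidase-like gene AT1G12010 (−0.01 ± 0.16, adjusted p = 0.995). The 13 listed ethylene-responsive transcription factors were not analysed here.

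Among genes with a name here, the one furthest below wild type was AT5G19890, which codes for a class III peroxidase, one of the secreted haem enzymes that act on cell wall phenolics and hydrogen peroxide. It was at 9.25 and 9.56 in Col-0 and at 4.65 and 4.34 in ein3 eil1. The mutant arrays were both below the medians of all arrays, while the wild-type arrays were well above them. The difference of −4.91 ± 0.28 was a 30-fold lower level (adjusted p = 7.47e-07). The peroxidase genes AT1G49570 (−2.87 ± 0.22) and AT3G49960 (−2.37 ± 0.23) were also among the 15 lowest named genes. AT1G49570 was at 9.32 and 9.75 in Col-0 and 6.95 and 6.37 in ein3 eil1, and AT3G49960 at 8.53 and 8.29 against 6.51 and 5.56. For both genes the groups were apart by more than either pair of replicates.

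The peroxidases were then counted as a family, a list of 73 loci put together after these values had been seen. Of the 55 measured, limma called 10 lower and 0 higher, beside 2.56% and 2.92% of all features, and 45 were not called. At an unadjusted p under 0.05, which 17.1% of all features passed in either direction, 19 were lower and 3 higher. The family median was −0.08 against 0.01 for all features, so most members stood close to level. With any 1 of the 4 arrays left out 7 or 8 members were lower and 0 or 1 higher. AT5G64110 was at 6.93 and 6.84 in Col-0 and at 5.66 and 5.47 in ein3 eil1 (−1.31 ± 0.15, adjusted p = 0.000309). AT4G26010 (−1.64 ± 0.33) was not called without Col-0 MeJA replicate 1 and had a difference of −1.01 without ein3 eil1 MeJA replicate 2, and AT5G64100 (−1.38 ± 0.30) was not called without ein3 eil1 MeJA replicate 1 or Col-0 MeJA replicate 2. The abundant members PRXR1 (−0.11 ± 0.17) and AT5G64120 (0.21 ± 0.21) were not called.

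Other genes far below wild type had varied roles. AT5G19250, a GPI-anchored glycoprotein, was at 7.99 and 8.57 in Col-0 and at 3.79 and 3.62 in ein3 eil1. The mutant mean lay below the lower quartile of its arrays, so the 23.9-fold difference (−4.58 ± 0.19, adjusted p = 4.54e-08) depends on signal that may be background. AT4G16260, a beta-1,3-glucanase of the pathogenesis-related kind, was at 10.34 and 9.95 against 6.59 and 6.77 (−3.46 ± 0.21). Both arrays of the mutant were thus lower by more than 3 log2 units. AT1G08940, of the phosphoglycerate mutase family, was at 8.48 and 8.25 against 4.63 and 4.92 (−3.60 ± 0.19). AT1G26930, a kelch repeat F-box protein, was at 8.41 and 7.91 against 4.55 and 4.75 (−3.51 ± 0.17). For the 3 genes the adjusted p lay between 1.59e-07 and 9.4e-07. ARL, an ARGOS-like protein that promotes cell expansion, was at 9.46 and 9.31 in Col-0 and at 6.24 and 6.97 in ein3 eil1 (−2.78 ± 0.23, adjusted p = 1.52e-05). The replicates of the mutant differed for ARL, but both were below wild type, which was a condition for being among the 15 lowest. The defensin gene PDF2.5 was 6.22-fold lower (−2.64 ± 0.15). The remaining 5 of the 15 lowest were AT5G39520 (−3.03 ± 0.24), AT5G40590 (−2.35 ± 0.19), AT3G54040 (−2.23 ± 0.18), AT3G46280 (−2.18 ± 0.17) and AT5G50335 (−2.12 ± 0.25). In AT5G40590 the mutant mean was below the lower quartile.

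Furthest above wild type was PDF1.2, the antimicrobial defensin that marks the ERF branch. It was at 4.85 and 4.72 in Col-0 and at 8.30 and 9.95 in ein3 eil1. Both Col-0 arrays lay below the array medians, and the mutant replicates differed from each other by more than a log2 unit while staying far above wild type. The difference was 4.34 ± 0.41, a 20.3-fold higher level (adjusted p = 5.53e-05), and it was 3.52 to 5.17 with 1 array left out. PDF1.2b was at 5.64 and 5.35 against 8.39 and 9.51 (3.45 ± 0.30, adjusted p = 2.94e-05). The defensin genes are near-identical copies and the probe set of PDF1.2b is of a kind that can bind several genes, so the pair cannot be counted as separate evidence. LCR67, another defensin, was low in all 4 arrays, at 3.86 and 3.67 against 4.05 and 4.60 (0.56 ± 0.17, adjusted p = 0.0787). OSM34, an osmotin-like antifungal protein of the same list, went the other way, at 10.17 and 10.42 in Col-0 and at 8.41 and 8.26 in ein3 eil1 (−1.96 ± 0.19, adjusted p = 6.37e-05). Of 8 listed ERF branch outputs 4 were thus measured. The 2 higher were the PDF1.2 pair, 1 was lower and 1 not called, beside 2.92% of all features higher and 2.56% lower.

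The other genes among the 15 highest had varied roles. JAL23, a jacalin-related lectin, was at 3.46 and 3.43 in Col-0 and at 6.66 and 6.31 in ein3 eil1. The wild-type arrays were below the lower quartile, where signal may be background, so the 8.21-fold difference (3.04 ± 0.14, adjusted p = 1.05e-07) is uncertain in size. AT1G66100, a thionin, was at 9.44 and 9.04 against 11.92 and 11.84 (2.64 ± 0.28, adjusted p = 0.000124). AT3G28220, a TRAF-like protein, was at 7.70 and 8.03 against 10.42 and 10.47 (2.58 ± 0.21). AT1G76640, a calmodulin-like protein, was at 6.50 and 6.17 against 9.09 and 9.46 (2.93 ± 0.15). In all of these both mutant arrays were above both wild-type arrays, which was a condition for being among the 15. AT5G48540 (2.84 ± 0.27) and AT3G22060 (2.37 ± 0.18), secreted proteins with cysteine-rich repeats, were 7.15-fold and 5.18-fold higher. The remaining genes of the 15 highest without a small heat shock protein among them were AT3G28270 (3.34 ± 0.21), AT1G65500 (2.99 ± 0.15), AT5G20790 (2.78 ± 0.34), AT1G66860 (2.45 ± 0.17) and AT2G41730 (2.39 ± 0.34), the last on a probe set that can bind several genes. The Col-0 mean of AT1G66860 was below the lower quartile.

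**Figure D2:**
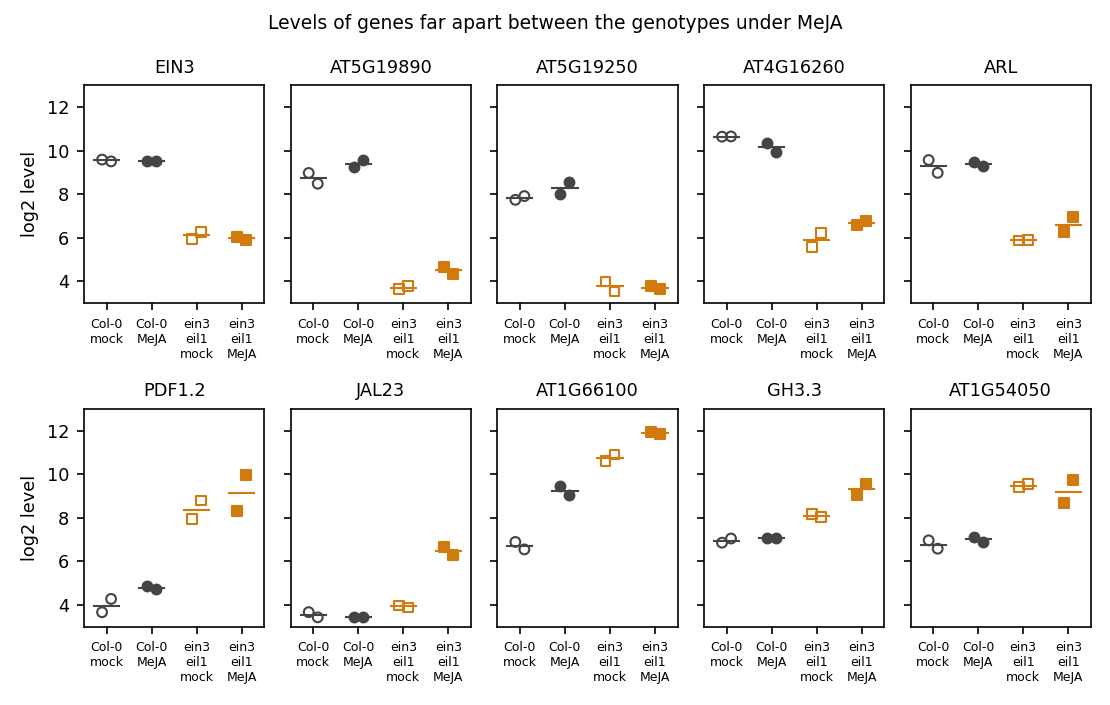
Log2 levels of 10 genes far apart between the genotypes under MeJA, with circles for Col-0 and squares for ein3 eil1, open symbols for mock, filled symbols for MeJA and a bar at the mean of the 2 arrays. EIN3 and the genes of the upper row were lower in both ein3 eil1 MeJA arrays than in Col-0, and the genes of the lower row higher, with the mutant replicates of PDF1.2 at 8.30 and 9.95.

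Small heat shock proteins, chaperones that hold unfolded proteins, were higher in ein3 eil1 under MeJA, with a spread between its replicates that was larger than for most genes. The list of 16 was put together after values had been seen. Of the 8 measured, 6 were called higher and 2 not called, beside 2.92% of all features called higher. All 8 were higher at an unadjusted p under 0.05, which 17.1% of all features passed in either direction. The median difference was 1.80 beside 0.01 over all features, and it was 0.90 without ein3 eil1 MeJA replicate 2 and 2.61 without replicate 1. ATHSP22.0 was at 3.91 and 3.74 in Col-0 and at 5.78 and 7.39 in ein3 eil1 (2.76 ± 0.37, adjusted p = 0.000734). AT1G54050 was at 7.13 and 6.89 against 8.67 and 9.72 (2.18 ± 0.26, adjusted p = 0.000333). AT1G53540 was at 6.06 and 5.68 against 7.37 and 9.23 (2.43 ± 0.41, adjusted p = 0.00387). In each case replicate 2 of the mutant was the highest array and replicate 1 lay between it and wild type. The mean over the 8 genes was 6.78 and 6.47 in Col-0 MeJA, 7.68 and 8.99 in ein3 eil1 MeJA, 8.62 and 8.98 in ein3 eil1 mock, and 6.29 and 6.36 in Col-0 mock. Among the 4 mutant arrays MeJA replicate 1 was the lowest, and all 4 were above the 4 wild-type arrays. The count of higher members was 7 without ein3 eil1 MeJA replicate 1, 5 without ein3 eil1 MeJA replicate 2 or Col-0 MeJA replicate 1, and 3 without Col-0 MeJA replicate 2. The difference of ATHSP22.0 was 3.87-fold without ein3 eil1 MeJA replicate 2 and 11.8-fold without replicate 1, in place of 6.76-fold. Without ein3 eil1 MeJA replicate 2 AT1G53540 was 2.83-fold higher in place of 5.39-fold and AT2G29500 1.72-fold in place of 2.4-fold. AT1G52560 was not called without either Col-0 MeJA array. Without Col-0 MeJA replicate 2, AT2G29500 and AT5G51440 (1.00 ± 0.21) were not called. Nor was AT5G51440 without ein3 eil1 MeJA replicate 2, where its difference was 0.66. The Col-0 mean of AT1G52560 lay below the lower quartile, where signal may be background, and its log2 difference was 1.01 without ein3 eil1 MeJA replicate 2 and 3.25 without replicate 1, in place of 2.13. The part of that spread in the result was not tested.

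Genes of jasmonate itself were close to wild type under MeJA. Of 11 listed genes that break down or modify jasmonate 5 were measured, with a median difference of −0.24. Of these limma called 1 higher and 0 lower, beside 2.92% and 2.56% of all features. AT2G38240, an oxygenase that hydroxylates jasmonic acid, was at 12.15 and 12.20 in Col-0 and at 11.99 and 11.71 in ein3 eil1 (−0.33 ± 0.22, adjusted p = 0.519). AT5G05600, of the same kind, had a difference of −0.31 ± 0.18 (adjusted p = 0.429). JRG21, a further such oxygenase singled out after its values had been seen, was at 12.05 and 11.85 against 11.66 and 11.77 (−0.24 ± 0.29, adjusted p = 0.778). For these oxygenase genes both mutant arrays were slightly below wild type, by less than the test could tell from the spread. JMT, the methyltransferase that makes MeJA, was called higher (0.72 ± 0.15, adjusted p = 0.0115) at levels of 3.58 and 3.70 against 4.58 and 4.15, all below the array medians and those of Col-0 below the lower quartile, and not without ein3 eil1 MeJA replicate 1 or Col-0 MeJA replicate 1. OPCL1, a CoA ligase of jasmonate synthesis and the 1 measured gene of 16 listed for it, was at 8.13 and 8.04 against 7.84 and 8.16, which overlap (−0.09 ± 0.14, adjusted p = 0.854). Of 17 listed JAZ repressors and MYC factors, the factors MYC3 (0.13 ± 0.12) and MYC4 (0.30 ± 0.17) were measured and not called, and the 13 listed outputs of the wound branch were not analysed here.

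The 3 oxygenase genes and OPCL1 were further apart under mock, and for each of the 4 the test of the difference between treatments was passed. This did not hold for JMT (0.23 under mock) and MYC4 (0.16). Under mock AT2G38240 was at 9.54 and 8.79 in Col-0 but at 11.14 and 11.08 in ein3 eil1, a difference of 1.94. The change of the genotype difference between treatments, MeJA minus mock, was −2.27 ± 0.30 (log2, SE, 2 arrays in each of 4 groups, adjusted p = 0.0032). OPCL1 had a difference of 1.26 under mock, with Col-0 at 6.64 and 6.88, and a change of −1.34 ± 0.20 (adjusted p = 0.007). In both genes the ein3 eil1 mock arrays lay above Col-0 mock and below Col-0 MeJA. JRG21 had a change of −2.36 ± 0.41 and AT5G05600 one of −1.13 ± 0.25 (adjusted p = 0.014 and 0.044), but these calls were lost without each of 3 and 7 single arrays, respectively.

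Some genes stayed above wild type under MeJA by much less than under mock. GSTU26, a tau class glutathione S-transferase, was at 10.26 and 9.78 in Col-0 and at 10.71 and 11.04 in ein3 eil1 under MeJA (0.86 ± 0.19), against 7.69 and 7.71 and 11.03 and 10.88 under mock (3.25). AT1G14120, a 2-oxoglutarate-dependent oxygenase, was at 0.66 ± 0.15 under MeJA and 2.97 under mock. GTR1, a transporter of glucosinolates, was at 0.71 ± 0.18 and 2.52. In all 3 genes the mutant arrays were high under both treatments while the wild-type arrays were high under MeJA alone. The change between treatments was −2.40 ± 0.27, −2.31 ± 0.22 and −1.80 ± 0.25 (adjusted p = 0.0015, 0.00076 and 0.0038), while the small remaining differences under MeJA were not called without ein3 eil1 MeJA replicate 2 or Col-0 MeJA replicate 2, and that of GTR1 also without Col-0 MeJA replicate 1. BGLU24, a beta-glucosidase, changed sides. It was at 6.70 and 7.16 in Col-0 and at 5.75 and 5.32 in ein3 eil1 under MeJA (−1.39 ± 0.22, adjusted p = 0.00217), and at 4.34 and 4.13 against 5.42 and 5.26 under mock (1.11, not called without ein3 eil1 mock replicate 1 or Col-0 mock replicate 2). The change between treatments was −2.50 ± 0.31 and was called without each array in turn. Its ein3 eil1 arrays were level with each other across treatments (5.26 to 5.75), with the Col-0 mock arrays below and the Col-0 MeJA arrays above them.

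**Figure D3:**
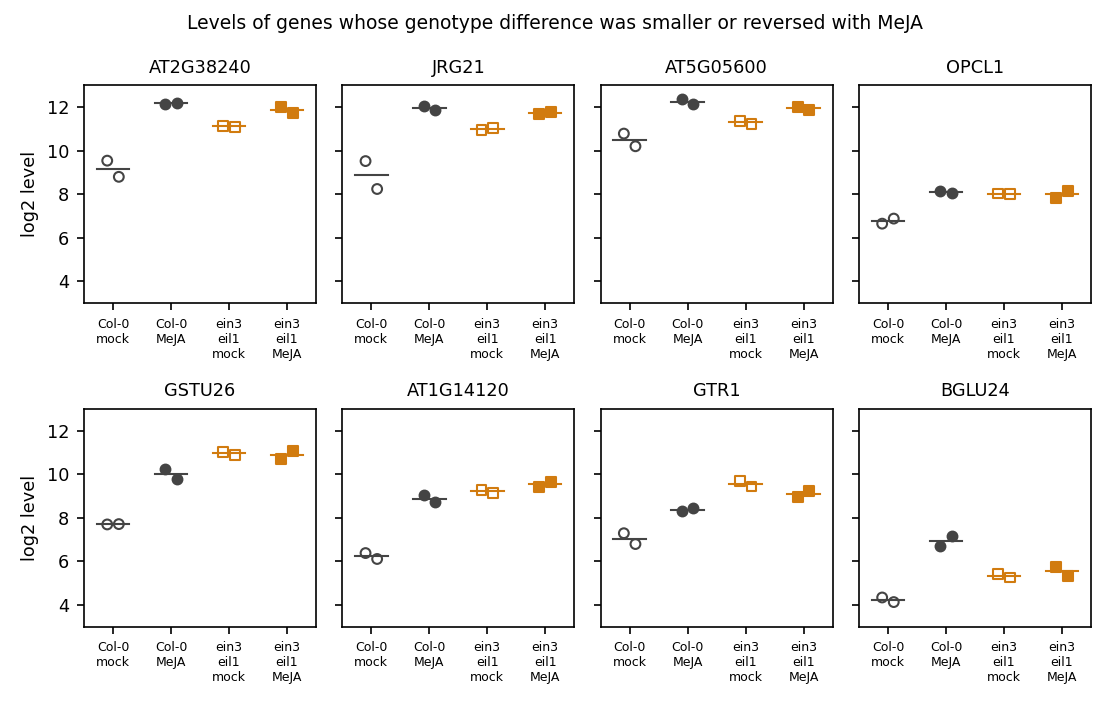
Log2 levels of 8 genes whose genotype difference was smaller or reversed with MeJA, drawn with circles for Col-0, squares for ein3 eil1, open symbols for mock, filled symbols for MeJA and bars at means of 2 arrays. In AT2G38240, JRG21, AT5G05600 and OPCL1 the genotypes are level under MeJA and apart under mock, and in BGLU24 the order of the genotypes turns.

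Among detoxification enzymes, of 11 measured tau class glutathione S-transferases, which join glutathione to reactive compounds, limma called 4 higher and 0 lower, also at an unadjusted p under 0.05, with a median of 0.20. Over all features 2.92% were higher and 2.56% lower, and 17.1% passed the unadjusted threshold in either direction. GSTU20 was at 9.24 and 9.75 in Col-0 and at 11.04 and 10.99 in ein3 eil1 (1.52 ± 0.17, adjusted p = 0.000234). GSTU18 (0.83 ± 0.17), GSTU26 and GSTU25 (1.03 ± 0.25) each lost the call without at least 1 of the 4 arrays, and GSTU25 had a difference of 0.54 without ein3 eil1 MeJA replicate 2. Fewer members were called with 1 array left out, between 1 and 3. Of 47 UDP-glycosyltransferases named by symbol, UGT72E2 (0.86 ± 0.14, adjusted p = 0.00323) and UGT73C1 (0.84 ± 0.19) were higher and 45 were not called, a share near the 2.92% of all features. The count was 5 without Col-0 MeJA replicate 1 and 1 without Col-0 MeJA replicate 2. The UGT73C1 call was lost without ein3 eil1 MeJA replicate 2 or Col-0 MeJA replicate 2.

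The 5 measured of 17 listed auxin response genes were split. GH3.3, an enzyme that conjugates auxin to amino acids, was at 7.07 in both Col-0 arrays and at 9.05 and 9.55 in ein3 eil1 (2.23 ± 0.17, adjusted p = 8.72e-06). GH3.17, of the same family, was at 5.54 and 5.67 against 6.88 and 6.89 (1.28 ± 0.16, adjusted p = 0.000392). WES1, a further member of the family, was lower, at 7.32 and 7.91 against 6.58 and 6.74 (−0.95 ± 0.18, adjusted p = 0.00747), though not without Col-0 MeJA replicate 2. No array of one genotype overlapped the other in these genes, but that held for 21.9% of all features on the higher and 20.1% on the lower side. GH3.1 (0.18 ± 0.12) and the auxin repressor IAA29 (−0.08 ± 0.14) were low and not called. This leaves 2 of the 5 measured members higher and 1 lower, beside 2.92% and 2.56% of all features.

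Genes that loosen the cell wall and genes of root hairs included some that were lower. Expansins are proteins that loosen the wall, and 13 were measured. At an unadjusted p under 0.05, which 17.1% of all features passed in either direction, 4 were lower and 0 higher. After adjustment limma called 3 of the 13 expansins lower and 0 higher, beside 2.56% and 2.92% of all features. Their median was 0.05, and −0.14 without ein3 eil1 MeJA replicate 1. EXLA1 was at 9.78 and 9.57 in Col-0 and at 8.21 and 8.84 in ein3 eil1 (−1.15 ± 0.17, adjusted p = 0.00174), and EXLA2 was at −0.77 ± 0.19, a call lost without ein3 eil1 MeJA replicate 1 or either Col-0 MeJA array. EXPA7, an expansin of root hairs, was at 7.06 and 7.42 against 6.07 and 6.35 (−1.03 ± 0.16, adjusted p = 0.00217). Of 10 xyloglucan endotransglucosylases, which cut and rejoin wall glucans, 3 were lower and 1 higher, beside the same shares of all features, and 1 was lower without Col-0 MeJA replicate 1. The 1 higher became 2 without ein3 eil1 MeJA replicate 1 and 0 without Col-0 MeJA replicate 2. XTH26 was at 5.58 and 5.25 against 3.97 and 3.51 (−1.68 ± 0.16, adjusted p = 6.16e-05), the mutant mean being below the lower quartile. XTH18 (−1.01 ± 0.18) and XTH16 (−0.94 ± 0.17) were not called without Col-0 MeJA replicate 1 and XTH32 (1.03 ± 0.21) not without Col-0 MeJA replicate 2. The root hair list had 3 of 16 genes measured. EXPA7 and XTH26 were called lower, beside 2.56% of all features, and EXPA18 was at −0.61 ± 0.26 (adjusted p = 0.238). Their mean was 6.58 and 6.54 in Col-0 and 5.64 and 5.27 in ein3 eil1, while PYK10, a beta-glucosidase of root endoplasmic reticulum and the 1 measured root marker, was at 12.72 and 12.47 against 12.31 and 12.43 (−0.23 ± 0.13, adjusted p = 0.42). In whole seedlings fewer cells of a type and less RNA per cell cannot be told apart, and the part of root hairs in the peroxidase and wall gene results was not tested. The leaf markers LHCB4.1 (−0.24 ± 0.12), LHCB4.2 and LHCB4.3, parts of the light-harvesting antenna, were measured and not called. Their differences ran from −0.57 to −0.11, and 1 was lower at an unadjusted p under 0.05. Seed markers were not analysed here.

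Of 26 cytochrome P450 genes 4 were lower and 1 higher, beside 2.56% and 2.92% of all features, among them CYP84A4, 2.14-fold higher (adjusted p = 0.00294), and CYP718 at −0.97 ± 0.13 (adjusted p = 0.000807, with the mutant mean below the lower quartile), with 1 or 2 lower when any 1 array was left out. At an unadjusted p under 0.05, which 17.1% of all features passed in either direction, 5 of 8 autophagy genes were lower. After adjustment 2 were lower, ATG8H (−0.83 ± 0.17) and ATG8G (−0.58 ± 0.15), beside 2.56% of all features. Both calls were lost without ein3 eil1 MeJA replicate 1 or Col-0 MeJA replicate 1, and that of ATG8H also without Col-0 MeJA replicate 2. All 8 lay below 0, with a median of −0.44, and without ein3 eil1 MeJA replicate 1 ATG8H was at −0.51. Calmodulin-like genes named by symbol, without AT1G76640 (2.93 ± 0.15, locus code only), had 1 of 7 higher, beside 2.92% of all features. This was CML37 (1.33 ± 0.27, adjusted p = 0.0124), with Col-0 below the lower quartile. It was not called without ein3 eil1 MeJA replicate 2 or Col-0 MeJA replicate 2. None of the 5 measured anthocyanin genes, the 6 WRKY factors or the measured gene of salicylic acid defence, WRKY53 (0.06 ± 0.15), was called by limma. At an unadjusted p under 0.05, 2 of the WRKY factors were lower and 0 of the other genes passed. BCAT4, an enzyme of aliphatic glucosinolate synthesis, was 1.48-fold higher (0.57 ± 0.14, adjusted p = 0.0321), a call lost without any 1 of the 4 arrays.

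**Figure D4:**
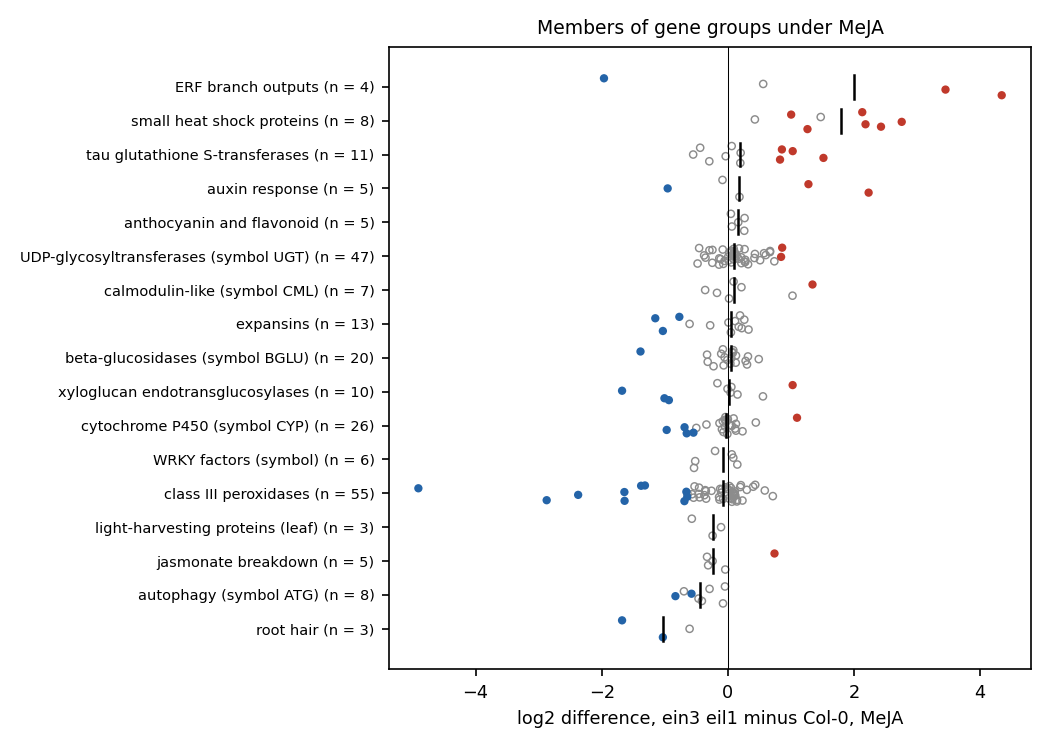
Log2 difference between ein3 eil1 and Col-0 under MeJA for each measured member of the gene groups with at least 3 members, with filled points for called members (red higher, blue lower), open points for those not called and a black bar at the median. The small heat shock proteins have a median of 1.80, and the class III peroxidases have 10 called members below 0 and a median of −0.08.

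The mock arrays of the 2 genotypes share no array with this comparison, so they show how much of the difference was also there without MeJA, with a spread estimated in the same fit. Under mock 2108 features (9.33%) were called, 1385 higher (6.13%) and 723 lower (3.2%) in ein3 eil1. Of the 1237 called under MeJA, 600 (48.5%) were called in the same direction under mock, which is 28.5% of the mock calls. For features higher under MeJA the share was 59% (389 of 659) and for lower ones 36.5% (211 of 578). Called in opposite directions were 7 features higher and 5 lower under MeJA. A call in one treatment and not in the other does not show that the difference changed. That change was tested directly and was called for 147 of the 1237 features (11.9%). Over all features it was called for 409 (1.81%), 313 of them with a lower (1.39%) and 96 with a higher (0.425%) difference under MeJA. Among the 409, 207 features were higher in ein3 eil1 under mock and not called under MeJA. The count of 409 was between 127 and 1038 with 1 of 8 arrays left out, the highest without ein3 eil1 MeJA replicate 2 and the lowest without ein3 eil1 mock replicate 1, and 213 without the coi1-2 arrays.

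Several of the genes furthest apart under MeJA were also far apart under mock. AT5G19890 was at −5.02 under mock, PDF1.2 at 4.40, ARL at −3.38, AT1G76640 at 3.13 and AT1G66860 at 2.71, and for these 5 the change between treatments was not called. Under mock JAL23 was at 3.66 and 3.43 in Col-0 against 3.97 and 3.88 in ein3 eil1, so that the difference under MeJA exceeded that under mock by 2.66 ± 0.20 (adjusted p = 0.00012). It remained called without each of the 8 arrays in turn. AT3G62040 (1.88 ± 0.21), AT3G45160 (1.54 ± 0.24) and AT1G48750 (1.39 ± 0.19) also had a called change towards higher with no array deciding it. These genes were at 1.04, 1.12 and 0.66 under MeJA and at −0.83, −0.42 and −0.73 under mock. Their Col-0 levels fell by 1.23 to 2.12 log2 units with MeJA. The MeJA difference of AT1G48750 was not called without ein3 eil1 MeJA replicate 1 or Col-0 MeJA replicate 1. OSM34 and XTH26 were closer to wild type under MeJA than under mock (−3.48 and −2.97), and AT1G08940 and AT1G26930 further from it (−2.26 and −2.23), with calls that single arrays could end. With MeJA, OSM34 changed by −0.33 in Col-0 and by 1.18 in ein3 eil1. XTH26 changed by −1.19 in Col-0 and by 0.10 in ein3 eil1, whose mean was below the lower quartile under MeJA.

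**Figure D5:**
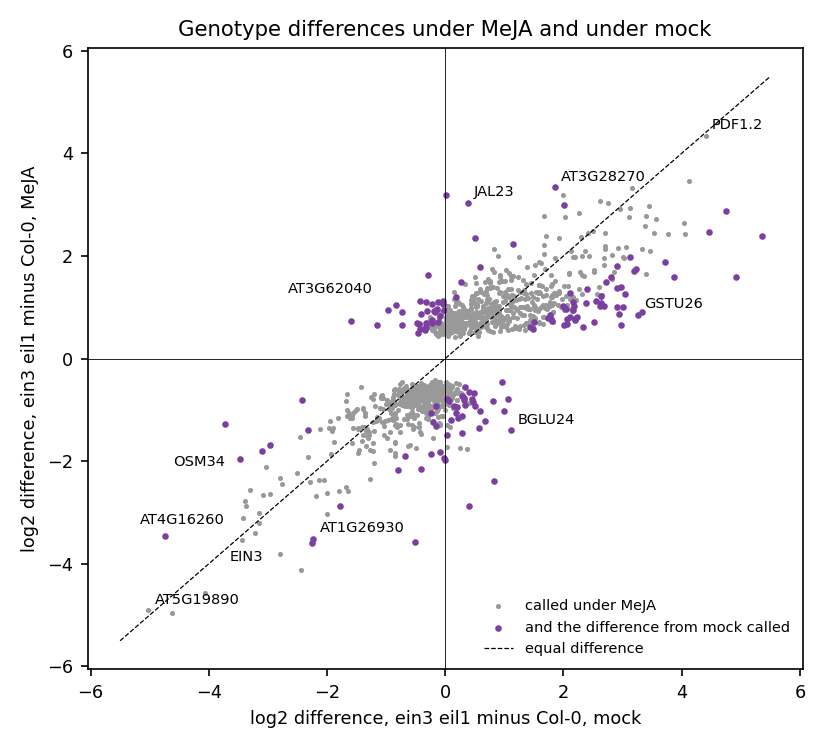
Log2 difference between ein3 eil1 and Col-0 under MeJA (vertical axis) against that under mock (horizontal axis) for the 1237 features called under MeJA, with purple for the 147 whose difference changed between treatments and a dashed line where both are equal. AT5G19890 and PDF1.2 lie near the line, JAL23 lies above it with a mock difference of 0.38, and BGLU24 lies where the sign turns.

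The coi1-2 mutant under MeJA is set beside these genes for reference, with the limit that both comparisons share the Col-0 MeJA arrays. Against Col-0 under MeJA, PDF1.2 was at −1.09 in coi1-2 (adjusted p = 0.16) and at 4.34 in ein3 eil1. AT1G66100 was at −3.36 and AT3G28220 at −2.62 in coi1-2 where ein3 eil1 was at 2.64 and 2.58. AT1G76640 was also lower in coi1-2 (−1.72), and JAL23 was not called (−0.08). Other genes higher in ein3 eil1 were called higher in coi1-2 too, among them AT3G22060 (2.21), AT1G53540 (2.03), AT1G65500 (1.77), AT5G48540 (1.29) and GH3.3 (1.26). The mean of the small heat shock proteins was 7.32 and 7.22 in coi1-2 MeJA, against 6.78 and 6.47 in Col-0 MeJA. AT2G38240 was at −2.72 in coi1-2 and JRG21 at −3.02, where ein3 eil1 had −0.33 and −0.24. AT5G19890 was at −2.98 in coi1-2 and −4.91 in ein3 eil1, while AT5G19250 (−0.20), AT4G16260 (0.07) and EIN3 (−0.06) in coi1-2 were not called. The differences between the mutants were not tested.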

How the data were processed

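Total RNA of whole seedlings (100 ng per sample, per the labels' protocols) was hybridised to Affymetrix ATH1 arrays. The deposited values of the authors are on the log2 scale and were made with RMA, with Affymetrix Expression Console and Partek also named, per the submitters' processing notes; tool versions and genome build are not given in the sources used here. Because RMA forces a near-common distribution on the arrays, a shift of most transcripts at once goes undetected. The labels cite a labelling manual for whole-transcript sense targets, which could not be checked against the arrays.

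From 22810 probe sets 64 controls were left out. Of the 22746 kept, 13513 had 1 gene name in the platform annotation, 503 several and 8730 none here, and 13436 matched the TAIR10.1 gene table, used for names only. Averaging probe sets of 147 genes gave 22588 features, of which 13355 were named genes (11820 by locus code only) and 9233 were kept without a name. Family lists taken by symbol therefore miss members known by locus code. No columns of other samples were in the table.

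limma 3.58.1 in R 4.3.3 (lmFit, eBayes) was fitted to all 12 arrays as 6 group means, which leaves 6 residual degrees of freedom beside 6.24 from the prior, after the script had been tested on simulated data, with Benjamini-Hochberg adjustment over all features and a threshold of 0.05. Contrasts were ein3 eil1 minus Col-0 under MeJA, the same under mock, and the difference of both, with coi1-2 minus Col-0 under MeJA and the MeJA response of Col-0 for reference. Tables were read with Python 3.11.15 and pandas 2.3.3, and figures drawn with matplotlib 3.10.9. Named were EIN3, the 15 highest and 15 lowest called named genes with groups that do not overlap, the 6 highest and 6 lowest called changes between treatments among genes called under MeJA, and per list up to 6 called members and 2 not called; JRG21 was added after its values were seen. The members and lists were chosen with earlier results of these data known, and lists are described by counts and medians only. Alternatives were quantile normalization, median centring, features above the 25th or 50th percentile of level, eBayes with trend and robust, smaller sets of arrays, array weights, a block for the replicate number, each array left out in turn, the highest probe set, a threshold of 0.01 and named genes only. Promoter motifs were not analysed here.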

Additional observations from a re-analysis of the deposited data

Results flagged for a closer look

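By limma's interaction test the difference between ein3 eil1 and Col-0 under MeJA differed from that under mock in 409 features (1.81% of all). Among them were 23 of the 115 genes picked out for naming. Some of these genes were picked because this change was called, and JRG21 after its values had been seen. The count of 23 therefore cannot be compared with the share of all features. The values are the MeJA difference minus the mock difference, in log2 units, and all rest on both Col-0 mock arrays. It was higher under MeJA for JAL23 (2.66), AT3G62040 (1.88), AT3G45160 (1.54), OSM34 (1.51), AT3G28270 (1.48), AT1G48750 (1.39), XTH26 (1.29), AT4G16260 (1.28), GH3.3 (1.08) and AT1G65500 (0.98). It was lower under MeJA for AT5G05600 (−1.13), AT1G26930 (−1.27), AT1G08940 (−1.34), OPCL1 (−1.34), AT3G46280 (−1.38), AT2G29500 (−1.78), GTR1 (−1.80), AT5G38020 (−1.90), AT2G38240 (−2.27), AT1G14120 (−2.31), JRG21 (−2.36), GSTU26 (−2.40) and BGLU24 (−2.50). Of these 23 genes 10 kept the call without each of the 8 arrays in turn: JAL23, AT3G62040, AT3G45160, AT1G48750, BGLU24, GSTU26, AT1G14120, GTR1, OPCL1 and AT2G38240. The other 13 lost it without at least 1 array.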

How the results depend on the processing

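No call of a named gene changed direction under the alternatives run, but the split of calls did: 623 were higher and 751 lower without ein3 eil1 MeJA replicate 2, and without Col-0 MeJA replicate 2 49.7% of 789 were higher. Among list medians near 0, that of the expansins turned from 0.05 to −0.14 without ein3 eil1 MeJA replicate 1 and that of the xyloglucan endotransglucosylases from 0.02 to −0.03 without replicate 2. The 1237 calls under MeJA (659 higher, 578 lower) numbered 630 to 1374 with 1 array left out (357 to 675 higher, 273 to 751 lower), 443 in a fit of the 4 arrays alone (251 and 192), 603 at a threshold of 0.01 (320 and 283) and 505 among named genes only (267 and 238). Calls under mock were 1073 to 1558 with 1 array left out, 1147 at 0.01 and 976 among named genes. The 409 changes between treatments were 127 to 1038 with 1 array left out, 213 in the fit without coi1-2 arrays, 90 at 0.01 and 127 among named genes. The 600 calls shared with mock were 312 in fits of the contrast's arrays, 323 at 0.01 and 246 among named genes. Fits with fewer arrays have fewer residual degrees of freedom; other causes were not tested. Of 72 called named genes 26 lost the call without at least 1 of the 4 MeJA arrays. Scaling left the split of calls near 53.3% higher (53.1% and 52.7%).

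Replicate numbers are shared by the groups. Deviations of same-numbered arrays correlated at −0.22 to 0.23, with the highest value between ein3 eil1 mock and ein3 eil1 MeJA. Whether same-numbered arrays were grown or processed together is not stated and was not tested. With the replicate number as a block 1238 features were called under MeJA (665 higher, 573 lower), 2136 under mock, 390 between treatments and 611 shared, and 2 named genes lost their call.

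Signal over background limits the low side: the Col-0 mean was below the array median for 214 of 659 features called higher, and the ein3 eil1 mean for 143 of 578 called lower, 28 and 25 of them below the lower quartile.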
